A study of Homo sapiens with 10 samples.

Results

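Cancer-testis antigens are proteins made in the germ line of the testis and, with few exceptions, in no other healthy adult tissue, and many tumours make them anew. The genes described here are 10 of them, read by their symbols from the 58870 genes of the deposited table: MAGEA3, MAGEA6, MAGEA12, MAGEA4, CTAG2, CTAG1B, GAGE1, PAGE5, SSX1 and PRAME. They were measured in LS180, an established human colorectal cancer line, grown in DMEM with serum and given no drug. The tested lines carried CRISPR interference guides sg1, sg2 or sg3 against RNASE1, a gene for a secreted ribonuclease, and the control lines carried the non-targeting guides NTC1 or NTC2. CRISPR interference directs an inactive Cas9 to a promoter to repress it, so the control lines went through the same method. Each of the 5 lines gave an A and a B library, which made 6 guide and 4 NTC libraries. The labels do not say whether a line is a clone or a pool, nor whether A and B were separate cultures, and a p-value here therefore speaks only of how far these libraries differ, possibly for technical reasons. CTAG2 and GAGE1 were chosen because their levels differed among the guide lines in these same libraries. Their levels in single guide lines are therefore given as a description, with no test.

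In somatic cells most of these genes are kept off by DNA methylation of their promoters, which the maintenance methyltransferase DNMT1 and its partner UHRF1 copy at each cell division, and loss of that methylation can switch them on. Many lie on the X chromosome in families of near-identical copies, so a short read can fit several genes at once. MAGE-A proteins bind RING-type ubiquitin ligases, MAGEA3 and MAGEA6 mainly TRIM28. CTAG1B encodes NY-ESO-1 and CTAG2 its relative LAGE-1, both targets of tumour immunotherapy. GAGE1 and PAGE5 encode small acidic proteins of related sequence, SSX1 a transcriptional repressor known from the fusion protein of synovial sarcoma, and PRAME a substrate receptor of a cullin ubiquitin ligase that also represses retinoic acid receptor signalling.

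All but 1 of the 10 genes lie on the X chromosome (GENCODE 29 annotation, GRCh38). MAGEA3 (chrX:152698752-152702347, plus strand), MAGEA12 (chrX:152733779-152737669, plus) and MAGEA6 (chrX:152766136-152769747, minus) form a cluster, with MAGEA4 nearer the centromere (chrX:151912509-151925170, plus). CTAG1B (chrX:154617609-154619282) and CTAG2 (chrX:154651972-154653579) follow on the minus strand. GAGE1 is annotated at chrX:49589496-49608536 on the plus strand, a span that takes in its neighbour GAGE2A. SSX1 (chrX:48255317-48267444) and PAGE5 (chrX:55220355-55224108) are also on the plus strand, and PRAME is on chromosome 22 (chr22:22547701-22559361, minus).

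How far the copies resemble each other decides what a count of them means, so coding sequence is shown for 3 pairs (GENCODE 29 transcripts, 5′ to 3′). Each stretch is the 60 coding bases with the most differences between the pair, and capitals mark the bases that differ. MAGEA3 and MAGEA6 coding sequences were 98.1% identical, with 18 differing positions of 945 and a longest identical run of 308 bases. Coding bases 573 to 632 lie at chrX:152701405-152701464 in MAGEA3 and chrX:152767019-152767078 in MAGEA6, and 4 of the 60 differ:
MAGEA3: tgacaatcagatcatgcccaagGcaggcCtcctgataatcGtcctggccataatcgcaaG
MAGEA6: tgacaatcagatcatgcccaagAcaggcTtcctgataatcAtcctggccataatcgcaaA

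CTAG2 and CTAG1B were 92.6% identical over 543 coding bases, with a longest identical run of 168 bases. Coding bases 193 to 252, at chrX:154653264-154653323 in CTAG2 and chrX:154618967-154619026 in CTAG1B, differ at 13 positions:
CTAG2: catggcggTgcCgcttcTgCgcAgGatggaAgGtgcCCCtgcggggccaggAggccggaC
CTAG1B: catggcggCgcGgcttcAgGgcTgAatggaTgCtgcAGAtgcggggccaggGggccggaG

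GAGE1 and GAGE2A were 97.7% identical, with 8 differing positions of 351. The stretch crosses an intron, between chrX:49600202 and 49600726 in GAGE1 and between chrX:49590675 and 49591199 in GAGE2A, and differs at 4 positions:
GAGE1: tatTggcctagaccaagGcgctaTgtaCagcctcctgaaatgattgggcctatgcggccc
GAGE2A: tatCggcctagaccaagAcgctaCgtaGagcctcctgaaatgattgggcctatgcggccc

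Over all annotated transcripts, the share of 50-base stretches found in no other gene was 43.5% for MAGEA3 and 46.1% for MAGEA6. It was 86.2% for MAGEA12, whose coding sequence is 92.2% identical to that of MAGEA3, and 92.7% for MAGEA4. CTAG2 had 56.9%, and the other 43.1% were shared with both CTAG1A and CTAG1B. CTAG1B itself had 10.1%, because 89.9% of its stretches also lie in CTAG1A. GAGE1 had 87.1% over all its transcripts, but the figure comes from 2 long transcripts of 2873 and 3129 bases, and its short coding transcripts of 564 and 768 bases had 21.7% and 49.8%. PRAME had 100%, SSX1 91.2% and PAGE5 87.8%. The read length is not given in the sources used here, and with stretches of 100 bases MAGEA3 reached 65.1%, MAGEA6 67% and CTAG2 75.5%.

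**Figure D1:**
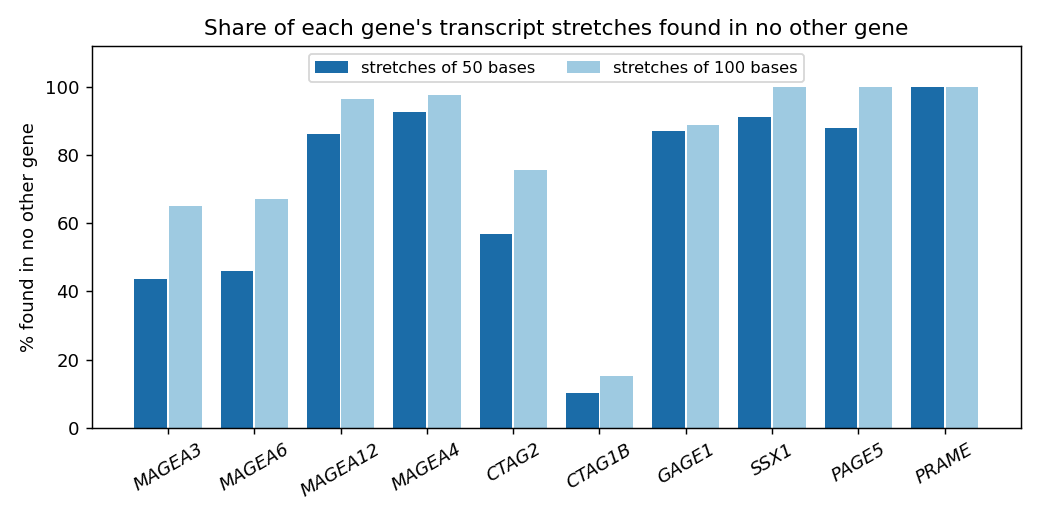
Share of the stretches of 50 bases (dark bars) and 100 bases (light bars) of each gene's annotated transcripts that occur in no other gene, in percent. MAGEA3, MAGEA6, CTAG2 and above all CTAG1B share sequence with copies, while PRAME shares none at either length.

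The libraries held 39026605 to 45050991 counts after rounding. RNASE1 was at 1.02 to 3.75 CPM (the count scaled to library size, after TMM) in the guide libraries and at 16.4 to 23.7 CPM in the NTC libraries, a log2 fold change of -3.26 (SE 0.231, edgeR adjusted p = 7.88e-05). All 12 colorectal epithelium markers averaged 1 CPM or more and summed to 6360 to 7880 CPM in guide libraries and 6430 to 7900 CPM in NTC libraries. Of 10 germ cell markers 7 had no count in any library, among them DDX4, PRM1 and SYCP1, and the list summed to at most 0.128 CPM in guide libraries and 0.0475 CPM in NTC libraries. Of 8 melanocyte markers 4 were at 0 (MLANA, S100B, SOX10 and TYR) and 2 averaged 1 CPM or more, and the list summed to 10.9 to 13.1 CPM in guide libraries and 10.8 to 12.6 CPM in NTC libraries. Of 9 leukocyte markers 3 were at 0 (CD3D, MS4A1 and PTPRC) and 1 averaged 1 CPM or more, and the list summed to 28.1 to 37.9 CPM in guide libraries and 34.3 to 38.4 CPM in NTC libraries. Of 9 fibroblast markers 1 was at 0 (COL1A2) and 3 averaged 1 CPM or more. That list summed to 4.19 to 5.58 CPM in guide libraries and 3.96 to 5.15 CPM in NTC libraries. The genes that carried these sums are not named here, and whether other cells were present was not tested. From bulk RNA, fewer cells expressing an antigen and less RNA per cell cannot be told apart.

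By mean level the 10 genes fell into 2 sets, although GAGE1 in sg2 was also below 0.5 CPM. MAGEA3, MAGEA6, MAGEA12, CTAG2 and GAGE1 averaged 1 CPM or more, and MAGEA4, CTAG1B, PRAME, SSX1 and PAGE5 stayed below 0.5 CPM in each of the 10 libraries. Per kilobase of annotated exon, MAGEA3 averaged 113 ± 4.06 CPM (SD, n = 10 libraries) and ranked 353 among 28474 genes with a count. MAGEA6 averaged 67.2 ± 3.37 CPM per kilobase (rank 643), MAGEA12 33.1 ± 2.04 (rank 1475), CTAG2 8.18 ± 1.78 (rank 5301) and GAGE1 0.498 ± 0.409 (rank 12695). Library ranges of these 5 genes per kilobase did not overlap, with MAGEA12 at 30.1 or more and CTAG2 at 11.5 or less. The value of GAGE1 depends on the long transcripts that set its exon length of 3237 bases. The remaining genes stood at 0.159 (PAGE5), 0.0621 (SSX1), 0.0108 (MAGEA4), 0.00871 (CTAG1B) and 0.00583 CPM per kilobase (PRAME), and their library ranges overlapped. The range of GAGE1, from 0.00876 to 1.25 CPM per kilobase, overlapped theirs as well.

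MAGEA3, MAGEA6 and MAGEA12, the ubiquitin ligase partners, were the abundant antigens and held a narrow range in every line. MAGEA3 stood at 210.1 (B) and 202.3 CPM (A) in sg1, 195.6 and 206.8 in sg2, and 190.7 and 210.9 in sg3, against 194.8 and 209.3 in NTC2 and 196.5 and 203 in NTC1. The guide and NTC libraries overlapped, and the coefficient of variation over the 10 libraries was 3.59%. MAGEA6 stood at 129.4 and 123.9 CPM in sg1, 115.4 and 127.2 in sg2, and 122.1 and 133.6 in sg3, against 126 and 130.7 in NTC2 and 114.9 and 129.3 in NTC1. It varied by 5.01%, and its groups overlapped as well. MAGEA12 stood at 63.6 and 67.2 CPM in sg1, 59.4 and 66.2 in sg2, and 61.7 and 68.7 in sg3, against 61.1 and 67.3 in NTC2 and 58.5 and 69.4 in NTC1. Here the B library was the lower of the pair in all 5 lines.

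**Figure D2:**
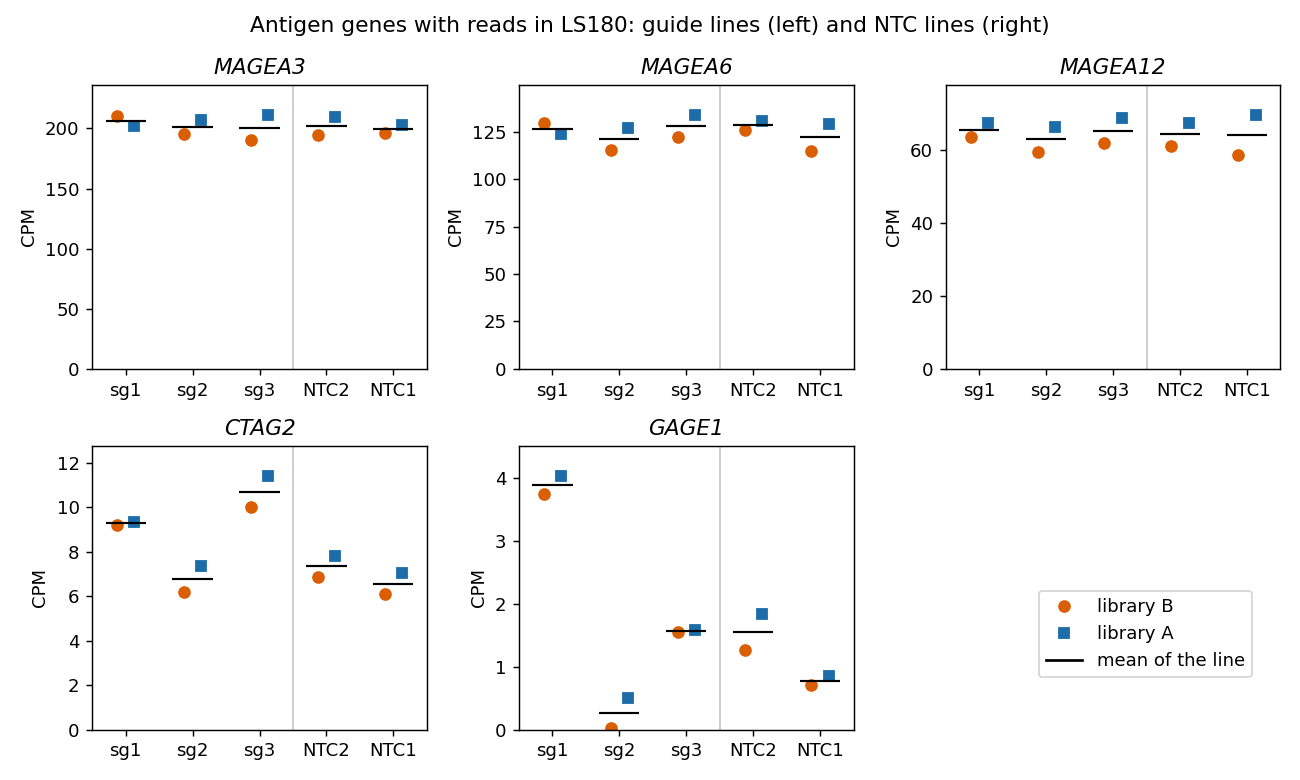
CPM of the 5 antigen genes with a mean of 1 CPM or more, by line, with guide lines left of the grey rule and NTC lines right of it. Orange circles are B libraries, blue squares A libraries and black bars the mean of a line, and each axis starts at 0. The MAGE-A genes are level across lines, while CTAG2 is higher in sg1 and sg3 and GAGE1 is highest in sg1 and lowest in sg2.

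Between arms these MAGE-A genes gave narrow intervals around 0. The comparison summed A and B per line and set 3 guide lines against 2 NTC lines (edgeR quasi-likelihood test, Benjamini-Hochberg adjustment over 17394 genes, threshold 0.05). MAGEA3 averaged 202.7 ± 3.01 CPM in the guide lines and 200.9 ± 1.63 CPM in the NTC lines (SD, n = 3 and 2 lines), a log2 fold change of 0.02 (95% interval -0.04 to 0.07, adjusted p = 0.928). MAGEA6 averaged 125.3 ± 3.49 and 125.2 ± 4.4 CPM, with an interval of -0.07 to 0.08 (adjusted p = 0.986). MAGEA12 averaged 64.5 ± 1.44 and 64.1 ± 0.169 CPM, with an interval of -0.05 to 0.08 (adjusted p = 0.951). On the linear scale the 3 intervals ran from 0.955-fold to 1.06-fold. The sum of MAGEA3 and MAGEA6, which does not depend on how reads were divided between the pair, was 332.9 ± 9.4 CPM in sg1, 322.5 ± 16.3 in sg2 and 328.7 ± 22.4 in sg3, against 330.4 ± 13.6 in NTC2 and 321.9 ± 14.8 in NTC1 (SD, n = 2 libraries).

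CTAG2, the gene of LAGE-1, was higher in sg1 and sg3 than in sg2 and the NTC lines. It stood at 9.21 (B) and 9.34 CPM (A) in sg1, 6.17 and 7.33 in sg2, and 9.98 and 11.4 in sg3, against 6.85 and 7.82 in NTC2 and 6.1 and 7.03 in NTC1. Every sg1 and sg3 library lay above each of the other 6 libraries, and the sg2 libraries lay within the NTC range. In order of level, sg3 averaged 10.7 ± 0.997 CPM and sg1 9.28 ± 0.0914, followed by NTC2 at 7.34 ± 0.688, sg2 at 6.75 ± 0.822 and NTC1 at 6.56 ± 0.662 (SD, n = 2 libraries). Libraries of the last 3 overlapped, whereas those of sg3, sg1 and NTC2 did not. Against the mean of both NTC lines the fitted log2 fold change was 0.42 (SE 0.113) for sg1, -0.04 (SE 0.116) for sg2 and 0.62 (SE 0.111) for sg3, and these comparisons share their control libraries.

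Over the arms CTAG2 did not pass the threshold. The guide lines averaged 8.91 ± 1.99 CPM and the NTC lines 6.95 ± 0.547 CPM (SD, n = 3 and 2 lines). The log2 fold change was 0.36 (SE 0.143, 95% interval 0.05 to 0.67, edgeR adjusted p = 0.541), on the same libraries in which the gene was chosen, so it is no independent evidence. With no filter on low counts, the fold change stayed at 0.36 and its edgeR adjusted p became 0.00151, in a fit that called 254 of 28491 genes, while under the other edgeR settings the adjusted p lay between 0.386 and 0.996. CTAG1B and CTAG1A, which share 43.1% of the 50-base stretches of CTAG2, added little: the 2 genes summed to at most 0.275 CPM in guide libraries and 0.125 CPM in NTC libraries. CTAG2 with both of them stood at 9.41 ± 0.286 CPM in sg1, 6.8 ± 0.799 in sg2 and 10.8 ± 0.93 in sg3, against 7.38 ± 0.706 in NTC2 and 6.64 ± 0.732 in NTC1 (SD, n = 2 libraries).

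GAGE1 varied most among the expressed antigens, by 82.1% over the 10 libraries. It stood at 3.75 (B) and 4.04 CPM (A) in sg1, 0.0284 and 0.497 in sg2, and 1.56 and 1.59 in sg3, against 1.26 and 1.84 in NTC2 and 0.705 and 0.858 in NTC1. Libraries of sg1 were above all others and those of sg2 below all others, while sg3 lay within the range of NTC2. In counts, sg1 had 146.59 in B and 166.67 in A, against 1.21 and 22.22 in sg2. The fitted log2 fold change against the NTC mean was 1.83 (SE 0.417) for sg1, -2.06 (SE 0.586) for sg2 and 0.52 (SE 0.449) for sg3. The value of sg2 rested on 1 library, at -5.38 without its A library and -1.16 without its B library.

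The GAGE family as a whole varied less, and GAGE1 is a small share of it. The sum runs over 13 protein-coding GAGE genes, of which 9 had counts, and the family was held at 24.2 (B) and 20.0 CPM (A) in sg1, 18.9 and 16.4 in sg2, and 21.3 and 18.9 in sg3, against 17.5 and 14.8 in NTC2 and 19.6 and 15.2 in NTC1. It varied by 15.4% over the libraries, and the guide and NTC ranges overlapped. The line means were 22.1 ± 2.99 CPM in sg1, 17.6 ± 1.72 in sg2 and 20.1 ± 1.72 in sg3, against 16.1 ± 1.91 in NTC2 and 17.4 ± 3.13 in NTC1 (SD, n = 2 libraries). As log2 fold changes against the NTC mean, the family sum was at 0.40 (SE 0.128) in sg1, 0.08 (SE 0.13) in sg2 and 0.26 (SE 0.129) in sg3.

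Single copies took unequal shares of the family count from library to library. GAGE1 took 15.5% (B) and 20.2% (A) of the GAGE counts in sg1 and 0.15% and 3.03% in sg2, against 7.22% and 12.5% in NTC2 and 3.6% and 5.66% in NTC1. GAGE2E, with no 50-base stretch of its own, had 174.39 counts in NTC2 B and 0 in NTC2 A, and 87.85 and 47.27 in the B and A libraries of sg1. GAGE12G, also with no stretch of its own, had 34.05 and 107.5 counts in sg1 and 60.68 and 0 in sg2, with none in sg3 or the NTC lines. In sg1 A, GAGE12F and GAGE12G were each given exactly 107.5 counts. GAGE2A, of which 14.8% of stretches are its own, ranged only from 3.97 to 6.11 CPM, and GAGE13 from 3.93 to 6.95 CPM. Without GAGE1, the other GAGE genes summed to 18.2 ± 3.19 CPM in sg1, 17.39 ± 2.05 in sg2 and 18.52 ± 1.75 in sg3, against 14.55 ± 2.32 in NTC2 and 16.6 ± 3.23 in NTC1 (SD, n = 2 libraries). By mean, all guide lines lay above both NTC lines in this sum, sg1 with the highest GAGE1 and sg2 with the lowest alike. The SDs of the sum reached 3.23 CPM, while the line means of GAGE1 ran from 0.263 to 3.89 CPM. Shifts of that size could therefore be hidden in these sums. The part of read division in the differences of GAGE1 was not tested.

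**Figure D3:**
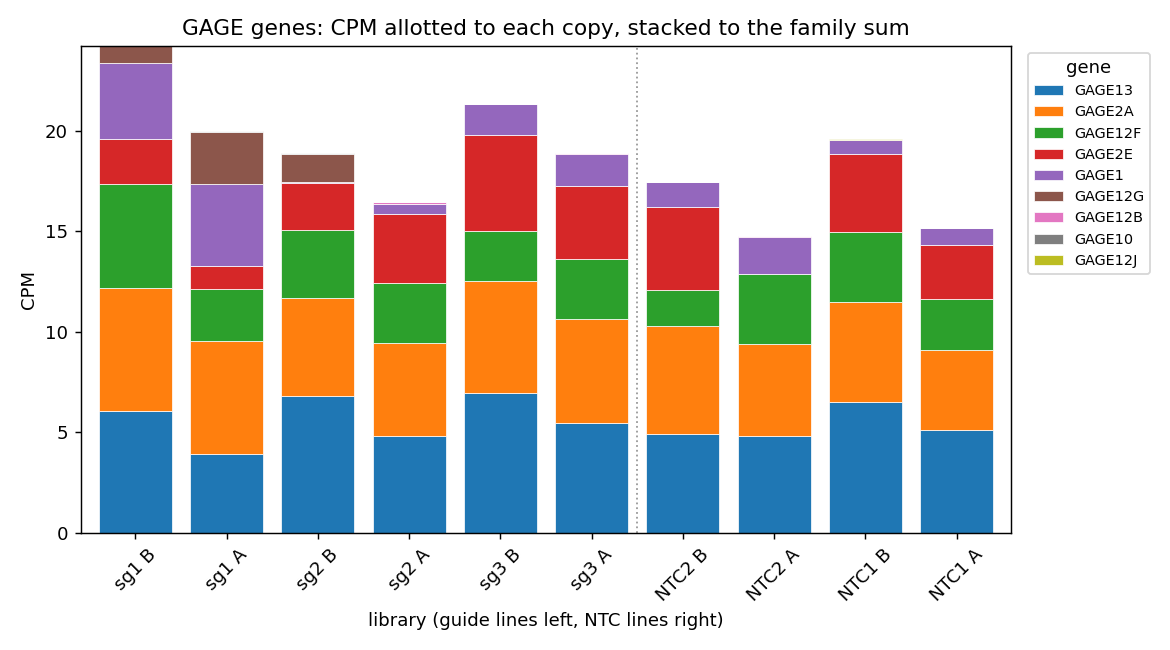
CPM allotted to each GAGE gene, stacked to the family sum, in each library, with guide lines left of the dotted rule and NTC lines right of it and B before A within a line. The sums range from 14.8 to 24.2 CPM, while the GAGE2E and GAGE12G segments can appear or vanish between the libraries of a line. The GAGE1 segment is largest in both sg1 libraries and smallest in both sg2 libraries.

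Over the arms neither GAGE1 nor the family sum passed. Chosen on the same libraries, GAGE1 averaged 1.91 ± 1.84 CPM in the guide lines and 1.17 ± 0.544 CPM in the NTC lines (SD, n = 3 and 2 lines), a log2 fold change of 0.71 (95% interval -0.72 to 2.14, edgeR adjusted p = 0.835). The family averaged 19.9 ± 2.23 CPM in the guide lines and 16.7 ± 0.902 CPM in the NTC lines, at 0.25 (SE 0.0776, edgeR adjusted p = 0.415). With no filter on low counts GAGE1 passed with the same fold change of 0.71 (edgeR adjusted p = 0.013). Under the other edgeR settings that kept GAGE1 a single gene, the adjusted p lay between 0.683 and 0.996.

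MAGEA4, CTAG1B, PRAME, SSX1 and PAGE5 were close to silent. In a single library a count of 0 allows up to 3 counts, or 0.0656 to 0.0768 CPM here, and such limits cover counting error only. PAGE5, the GAGE relative, had 3 (B) and 3 counts (A) in sg1, 0 and 0 in sg2, and 1 and 8 in sg3, against 9 and 17 in NTC2 and 3 and 6 in NTC1. Its line means were 0.06 ± 0.0542 CPM in the guide lines and 0.206 ± 0.144 CPM in the NTC lines (SD, n = 3 and 2 lines), with overlapping libraries. SSX1, the repressor, had 3 and 10 counts in sg1, 0 and 5 in sg2, and 0 and 2 in sg3, against 4 and 6 in NTC2 and 2 and 2 in NTC1. MAGEA4 had 2 and 0 counts in sg1, 0 and 1 in sg2, and 0 and 3 in sg3, against 3 and 5 in NTC2 and 0 and 0 in NTC1. PRAME had 3 and 1 counts in sg1, 0 and 0 in sg2, and 3 and 0 in sg3, against 0 and 0 in NTC2 and 0 and 2 in NTC1. CTAG1B had none in any guide library, against 0 and 2.59 in NTC2 and 1.18 and 0 in NTC1, fractions that show these reads were divided among copies. The groups of all 5 genes overlapped.

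**Figure D4:**
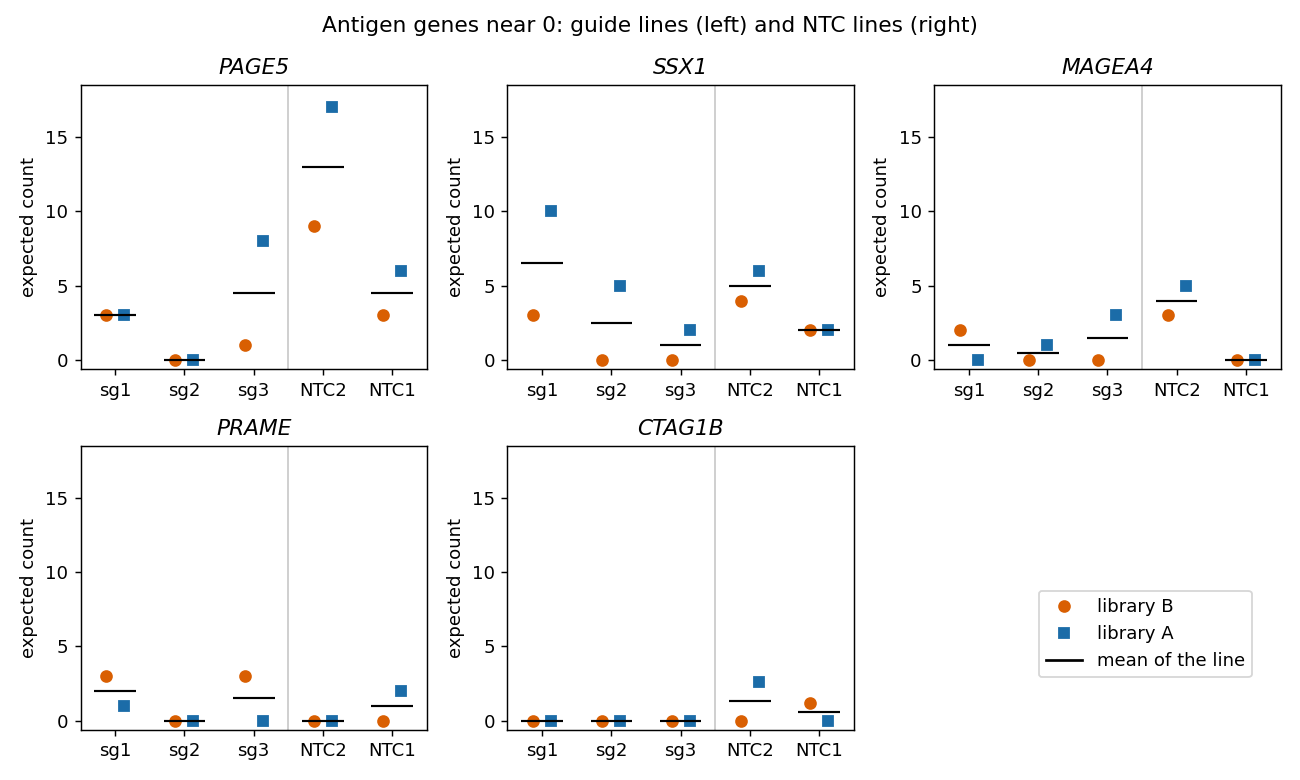
Expected counts of the 5 antigen genes near 0, by line, on the same scale, with guide lines left of the grey rule and NTC lines right of it; circles are B libraries, squares A libraries and bars line means. The highest value is 17 counts of PAGE5 in NTC2 A, and both sg2 libraries are at 0 for PAGE5, PRAME and CTAG1B.

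Across the designed comparisons, edgeR called no antigen gene between guide and control lines. Over the arms 6 of the 10 genes passed the filter, the 5 expressed ones and SSX1 (log2 fold change -0.03, SE 0.753), and CTAG2 and GAGE1 among them had been chosen on these libraries. Of the other 4, edgeR called 0, against 0.023% of all tested genes, and 0 were under an unadjusted p of 0.05. DESeq2 gave an adjusted p to 3 of the 6, MAGEA3, MAGEA6 and MAGEA12, and called 0 of those, so it gave no call on CTAG2, GAGE1 or SSX1. For each guide line against both NTC lines, MAGEA3, MAGEA6 and MAGEA12 were tested apart from the 2 genes chosen on those lines, and 0 of 3 were called in sg1, sg2 or sg3. The background was 0.00609% in each of those comparisons, 0 of the 3 genes were under an unadjusted p of 0.05, and DESeq2, with an adjusted p for all 3, called 0. NTC2 against NTC1 called 0% of 16411 genes and 0 of the 5 antigens tested, with 282 and 0 under an unadjusted p of 0.05 and 2 and 0 called by DESeq2. In that comparison of controls CTAG2 was at 0.16 (95% interval -0.14 to 0.46) and GAGE1 at 0.99 (95% interval -0.23 to 2.22), both with an edgeR adjusted p of 1. The interval of GAGE1 between the 2 control lines thus includes a difference of more than 4-fold.

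The library letter moved 1 antigen past the threshold. The fit of B against A kept the line as a term and called 29.6% of 16411 genes, 2392 higher and 2458 lower in B, so a call by letter is common in these data. MAGEA12 was lower in B by a log2 fold change of -0.16 (SE 0.0309, edgeR adjusted p = 0.00201), and its B libraries, at 63.6 CPM or less, lay below all A libraries, at 66.2 CPM or more. CTAG2 was at -0.17 (SE 0.0619, adjusted p = 0.0545), MAGEA6 at -0.09 (SE 0.0339, adjusted p = 0.0725), MAGEA3 at -0.06 (SE 0.0303, adjusted p = 0.13) and GAGE1 at -0.44 (SE 0.265, adjusted p = 0.243). The GAGE1 value became -0.23 without either library of sg2, -0.29 with no line term and -0.70 in DESeq2, none of them past the threshold. CTAG2 was lower in B in all 5 lines, and MAGEA3 and MAGEA6 in 4 of 5. All 4 of MAGEA12, CTAG2, MAGEA3 and MAGEA6 passed when either library of sg1 was left out. DESeq2 called MAGEA12 alone. The GAGE family sum went the other way from GAGE1, higher in B in all 5 lines with a log2 fold change of 0.25 (SE 0.0442, edgeR adjusted p = 0.000837).

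**Figure D5:**
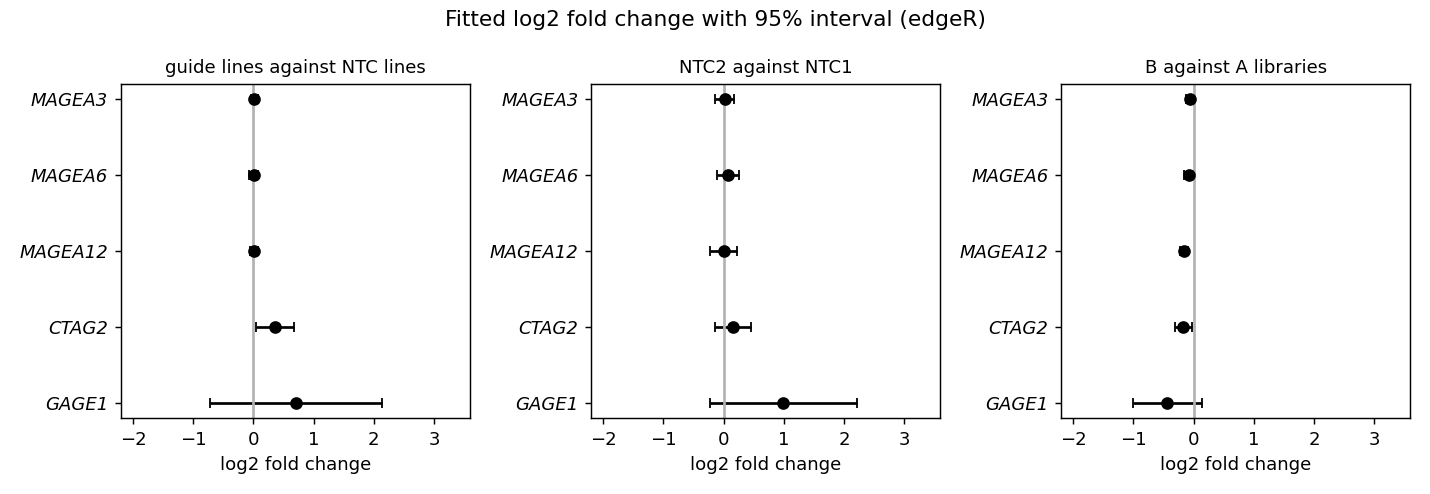
Fitted log2 fold change (points) with 95% interval (bars) of the 5 expressed antigens for guide lines against NTC lines, NTC2 against NTC1, and B against A libraries, on 1 common axis. The MAGE-A intervals are narrow, and that of GAGE1 is the widest in each panel.

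Other antigen genes were compared through a list of X-linked antigens and a list of autosomal ones. Of 106 X-linked antigens in the table beside the 10 genes, 13 averaged 1 CPM or more and 49 had no count in any library. Over the arms 0 of 19 tested were called by edgeR, and DESeq2 called 0 of the 2 it gave an adjusted p. Under an unadjusted edgeR p of 0.05 were 4 of the 19, a larger share than the background of 7.98%. In single guide lines it was 4 of 17 in sg1, 3 in sg2 and 1 in sg3, beside backgrounds of 2.3%, 1.82% and 2.16%. NTC2 against NTC1 had 0 of 17, beside 1.72%. None was called by edgeR in these comparisons. The 4 over the arms included MAGEC1, higher in the guide lines, and the little-expressed CSAG2, lower in them. The 1 in sg3 was NXF2, at a log2 fold change of -1.28, beside 0.99 for its copy NXF2B. The list holds copies that share reads, and the guide lines share their control libraries, so these counts are not independent. Over the arms these antigens had a median log2 fold change of 0.019, beside -0.001 for every gene tested. The most abundant was MAGEA2, another MAGE-A gene of the same cluster, at 53 CPM in the guide lines and 54.2 CPM in the NTC lines. MAGEC1, a larger MAGE relative, averaged 46.3 CPM in the guide lines and 41.3 CPM in the NTC lines (log2 fold change 0.16, SE 0.0445, edgeR adjusted p = 0.328). Its guide libraries held 53.6 (B) and 43.5 CPM (A) in sg1, 51 and 40.6 in sg2, and 50.3 and 38.7 in sg3, against 45.6 and 40.4 in NTC2 and 44.2 and 35 in NTC1. Within the B libraries all 3 guide lines lay above both NTC lines, and within the A libraries sg3 lay below NTC2. CSAG1, a gene between MAGEA3 and MAGEA12, was at 25.8 CPM in the guide lines and 26.1 CPM in the NTC lines.

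By letter 5 of 17 X-linked antigens were called, 29.4% beside 29.6% of all genes, so the share was that of the background. MAGEC1 (log2 fold change 0.30, edgeR adjusted p = 4.62e-05), GAGE13 (0.37, adjusted p = 0.00603) and NXF2, an mRNA export factor, (0.61, adjusted p = 0.0376) were higher in B. MAGEA2 (-0.16, adjusted p = 0.0454) and the little-expressed CSAG2 (-2.51, adjusted p = 0.0309) were lower in B. DESeq2 gave an adjusted p to 13 of the 17 and called GAGE13, MAGEA2 and MAGEC1, not CSAG2 or NXF2. MAGEA2 shares 96.4% of its 50-base stretches with MAGEA2B, and their sum was lower in B in every line. CSAG2 and CSAG3 together ranged from 10.4 to 12.8 CPM over all libraries, a sum chosen after its values were seen. NXF2 has a copy, NXF2B, and the sums over these and the CT47A genes were chosen after their values were seen: in sg1 B they had 442.58 and 1.57 counts, and in sg1 A 167.21 and 209.01. Their sum ranged from 8.46 to 12.2 CPM in guide libraries and from 8.3 to 9.39 CPM in NTC libraries, against 1.18 to 11.3 CPM for NXF2 alone. CT47A11 had 113.53 counts in sg2 A and 473 to 607.54 elsewhere, while 12 CT47A genes together ranged from 11.3 to 15.6 CPM over all libraries.

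Among 63 autosomal antigens in the table beside PRAME, 15 averaged 1 CPM or more and 23 had no count. Over the arms 0 of 21 tested were called, none was under an unadjusted p of 0.05, and DESeq2 called 0 of the 7 it gave an adjusted p. The median log2 fold change was -0.02 beside -0.001 over all genes. The abundant ones included mitotic genes that dividing cells in general express. KIF2C, a kinesin that trims microtubule ends, was at 85.5 CPM in the guide lines and 86.5 CPM in the NTC lines, the kinase gene TTK at 25.8 and 26.2 CPM, and the chromatin ATPase gene ATAD2 at 130 and 131 CPM. By letter 5 of 20 were called, 25% beside 29.6% of all genes. ATAD2 (0.10) and the scaffold gene SPAG9 (0.13) were higher in B, and PBK (-0.17), CEP55 (-0.17) and OIP5 (-0.22), genes of mitosis, lower in B (edgeR adjusted p from 0.000621 to 0.0222). The MAGE relatives that most tissues express are a further contrast: 6 of 12 averaged 1 CPM or more and 0 of 6 were called by edgeR over the arms, with 0 under an unadjusted p of 0.05 and 0 of the 2 with a DESeq2 adjusted p called. MAGED1, the most abundant, was at 135 CPM in the guide lines and 132 CPM in the NTC lines.

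Regulators of promoter methylation and silencing did not pass over the arms. They include genes that lay the marks down and genes that act against them, such as TET2 and TET3, which oxidise methylated cytosine. Of 42 listed regulators 40 averaged 1 CPM or more, and 0 of 41 tested were called by edgeR, with 5 under an unadjusted p of 0.05 and 0 of the 28 with a DESeq2 adjusted p called (median log2 fold change -0.005 beside -0.001 over all genes). DNMT1, the maintenance methyltransferase, was at 235 CPM in the guide lines and 224 CPM in the NTC lines (log2 fold change 0.06, SE 0.0282, edgeR adjusted p = 0.601). UHRF1, which recruits DNMT1, was at 111 and 106 CPM (0.07, SE 0.0366, adjusted p = 0.691). TRIM28, both a silencing corepressor and the ligase that MAGEA3 binds, was at 652 and 639 CPM (0.03, SE 0.0257, adjusted p = 0.827). The 3 most abundant after it, CBX5, CBX3 and HDAC2, had log2 fold changes of -0.02, -0.04 and -0.06. By letter 16 of 41 were called, 39% beside 29.6% of all genes, 13 higher and 3 lower in B. UHRF1 (0.40, SE 0.0349, edgeR adjusted p = 7.12e-06) and DNMT1 (0.25, SE 0.0274, adjusted p = 3.54e-05) were among those higher in B. Of the X-linked antigens that edgeR called by letter, MAGEA12, MAGEA2 and CSAG2 were lower in B, and MAGEC1, GAGE13 and NXF2 higher. DESeq2 did not call CSAG2 or NXF2. The GAGE sum, which includes GAGE13, was higher in B as well. A link between these antigens and the regulators was not tested. TET2, TET3, SIN3A, HELLS, MGA, SUZ12, ATF7IP, EHMT1, BEND3 and DNMT3A were also among the regulators higher in B, and UHRF2, MAX and MBD2 lower.

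Partners of the proteins were measured as well. Of 8 partners and targets of PRAME 7 were tested, and over the arms edgeR called 0, with 1 under an unadjusted p of 0.05 and 0 of the 5 with a DESeq2 adjusted p called. By letter 5 of 7 were called, beside 29.6% of all genes. The cullin adaptor genes ELOB and ELOC and the RING gene RBX1 were lower in B, at log2 fold changes of -0.25, -0.17 and -0.24, as was the retinoic acid receptor gene RARG at -0.11, while RARA was higher at 0.13 (edgeR adjusted p from 7.22e-05 to 0.0179). Of 6 tested partners and targets of MAGE-A proteins 0 were called over the arms by edgeR, with 0 under an unadjusted p of 0.05 and 0 of the 4 with a DESeq2 adjusted p called. PRKAA1, the AMPK subunit that MAGEA3 and MAGEA6 mark for breakdown, was at 82.4 CPM in the guide lines and 82.3 CPM in the NTC lines. By letter 3 of 6 were called, beside 29.6% of all genes. PRKAA1 and TRIM69 were both at -0.16, and TRIM31, at 0.68 CPM on average, at 1.06 (edgeR adjusted p from 0.00279 to 0.0259).

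Genes around the antigens were counted within 500 kb on either side. Near CTAG2, 0 of 27 tested genes were called by edgeR over the arms or in any single guide line, with 3 under an unadjusted p of 0.05 over the arms, and DESeq2 called 1 of the 11 it gave an adjusted p over the arms, FLNA, named here because of that call. Near GAGE1 it was 0 of 20 over the arms and 0 of 19 in each guide line, and near MAGEA3 0 of 15 and 0 of 14, with 3 and 1 under an unadjusted p of 0.05 over the arms. DESeq2 gave an adjusted p over the arms to 2 and 4 of them and called 0. Log2 fold changes over the arms ran from -0.33 to 0.66 near CTAG2 and from -0.3 to 9.12 near GAGE1. Near MAGEA3 they ran from -2.89 to 0.13. In sg1 they reached 9.22 near GAGE1 and -6.61 near MAGEA3. The highs near GAGE1 were 7.92 in sg2 and 0.95 in sg3, and the gene that gave them was not identified. GAGE12G, a copy with no 50-base stretch of its own, had counts in sg1 and sg2 but none in sg3 or the NTC lines. Against no counts a fold change has no reliable size. Both lows near MAGEA3 were those of CSAG2, at 0.158 CPM on average. By letter, where 29.6% of all genes were called, 7 of 27 were called near CTAG2 (SLC10A3, FUNDC2, CMC4, BRCC3, LAGE3, IKBKG and IKBKGP1), 4 of 19 near GAGE1 (PLP2, CLCN5, WDR45 and GAGE13) and 4 of 14 near MAGEA3 (ZNF185, MAGEA12, MAGEA2 and CSAG2). On the whole X chromosome 0 of 546 tested genes were called over the arms, with 39 under an unadjusted p of 0.05 and 3 called by DESeq2 among 153 with an adjusted p, and 29% of 513 were called by letter.

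The genes most like CTAG2 across libraries, by Pearson's r of log2 CPM over the 10 libraries among 13022 genes at 1 CPM or more, were AKT1S1 (r = 0.972), SULT1A3 (0.94), DLL3 (0.925), C19orf66 (0.885) and JADE2 (0.869). For GAGE1 they were GTPBP6 (0.95), IGFBP2 (0.93), PRR19 (0.88), CLU (0.873) and MSL3P1 (0.87). These are the highest of 13022 values over 10 libraries of 5 lines and are given as a description. Among the antigens themselves, MAGEA6 and MAGEA12 had an r of 0.83, MAGEA3 and MAGEA6 0.751, MAGEA3 and MAGEA12 0.726, and CTAG2 and GAGE1 0.675. These points share the library letter, the lines and, for MAGEA3 and MAGEA6, reads.

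Promoter sequence was read for the MAGE-A genes, which include the abundant antigens and the near-silent MAGEA4. RefSeq (GRCh38.p14) listed a promoter for 8 of the 10 genes, all but CTAG2 and CTAG1B. The 300 bases around the start of MAGEA3 and of MAGEA6 were identical. The longest run common to the 250 bases upstream of MAGEA3, MAGEA6, MAGEA12 and MAGEA4 was 13 bases long, GTTCCACCCCTGC, in capitals below within 30 bases of each gene, at chrX:152698660-152698689, chrX:152733698-152733727 and chrX:151912415-151912444 on the plus strand:
MAGEA3: agaatccaGTTCCACCCCTGCccggaaccc
MAGEA12: agaatccaGTTCCACCCCTGCtgtgaaccc
MAGEA4: cgaatccgGTTCCACCCCTGCtgtcaaccc

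The run was defined as common to MAGEA3, MAGEA6, MAGEA12 and MAGEA4, so its presence in abundant and near-silent genes alike was fixed beforehand. It lay in 5 of 27305 promoters (0.0183%) on either strand, the fifth being that of MPP7. A longer run of 27 bases, ACCCCACCAGGATCTACAGCCTCAGGA, was common to MAGEA3, MAGEA6 and MAGEA12 and also lay upstream of MAGEA2 and MAGEA2B but not of MAGEA4. It was found by comparing genes chosen for their level. Because 13 bases was the longest run shared with MAGEA4, the absence of the longer run there was fixed beforehand too. The 250 upstream bases held 15 CG pairs in MAGEA3 and MAGEA6, 5 in MAGEA12, 6 in MAGEA4, 8 in GAGE1, 9 in PAGE5 and PRAME and 3 in SSX1, beside a median of 11 over all promoters. The 5 and 15 CG pairs of the expressed MAGE-A genes enclose the 6 of MAGEA4, so the count did not order the genes by level. The shared run begins 126 bases before the listed start in MAGEA3 and 51 in MAGEA12 and MAGEA4. The windows thus cover different parts of the related sequence, which limits a comparison of these counts. The second of 2 listed GAGE1 starts had the same 300 bases as the start of GAGE2A.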

How the data were processed

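The deposited data are RSEM expected counts for each gene, going by the table's name. RSEM shares a read that matches several genes out between them. Per the submitters' processing notes, the tools included CASAVA 1.8.2, FastQC 0.11.2 and TopHat2 2.0.8 and the build was hg38, with no roles stated. For RSEM, neither a version nor an annotation is given in the sources used here. Per the labels' protocols, RNA was captured on oligo(dT) and no step that marks strand is named. Of the expected counts 7.12% were not whole, and all were rounded before testing.

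Tests used edgeR 4.0.16 in R 4.3.3 (quasi-likelihood, TMM, filterByExpr, two-sided, 95% intervals), with Benjamini-Hochberg adjustment over all tested genes, and were checked on simulated data. The simulation gave every gene the same spread and changed only genes at 1 CPM or more. Its comparisons of lines and arms had no letter effect. It therefore does not cover the letter differences or the near-silent genes of these data. DESeq2 1.42.0, other filters and scalings, summed copies and omitted libraries were alternatives. Deviations from line means correlated between same-lettered libraries in 10 of 10 pairs (r from 0.301 to 0.502 over 13035 genes at 1 CPM or more), so the letters pair the samples. The main fits of single lines had no letter term, so the letter adds to their SE. A replicate block that added the letter was an alternative. With it the SE of CTAG2 in sg1 was 0.0841, beside 0.113 in the main fit. Depth was 39026605 to 45050991 counts per library.

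The genes and lists were chosen with earlier results of these data known. Named genes were the 10 antigens, up to 10 of each wider antigen list by mean CPM, listed genes past the threshold, the 4 most abundant of each regulator or partner list, and neighbours past the threshold; some are not reported here. Positions come from GENCODE 29, which held 58552 of the 58870 identifiers without version.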

Additional observations from a re-analysis of the deposited data

Results flagged for a closer look

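In 39 groups of 4 or 6 libraries, 2 values stood apart from the rest of their group by the gap to the nearest library relative to the range. Chance sets apart about 1 in 20 such groups. PRAME was at 0.0475 CPM (2 counts) in NTC1 A, where the other 3 NTC libraries had 0. With the other 3 tied at 0, any count stands apart by this rule. The rate of about 1 in 20 therefore does not apply to PRAME. The 12 CT47A genes together were at 11.25 CPM in NTC1 A, and the nearest other NTC library was at 12.37 CPM.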

How the results depend on the processing

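Over the arms, edgeR called 0 of the antigen genes and with no filter on low counts it called 2, CTAG2 and GAGE1; leaving out each library in turn gave 0 in every case. By letter it called 1, against 2 with no filter (MAGEA12 and MAGEA6), 2 with copies summed (MAGEA12 and the GAGE sum) and 1 to 4 with each library left out in turn, the 4 without sg1 A or sg1 B. With copies summed, GAGE1 became the GAGE sum and turned to -0.111 for NTC2 against NTC1 and to 0.252 for B against A. Over the arms MAGEA6 was at -0.001 with the replicate block, and with each library left out MAGEA3 ranged from -0.012 to 0.04, MAGEA6 from -0.039 to 0.039 and MAGEA12 from -0.045 to 0.066. The cause was not tested.

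The block changed no call of an antigen gene. Over all genes it called 2 in the arms, 4 in sg1, 2 in sg2, 6 in sg3 and 2 between the NTC lines, against 4, 1, 1, 1 and 0 without it. DESeq2 called 59, 6, 4, 4 and 2, and no filter gave 254, 69, 95, 86 and 57. In sg2, CTAG2 ranged from -0.17 without sg2 A to 0.076 without sg2 B, so its sign was not fixed. Without NTC1 A the largest fold change between lines reached 0.158 for MAGEA6 and 0.132 for MAGEA12. Depth limits MAGEA4, CTAG1B, PRAME, SSX1 and PAGE5, where a few counts decide each value, and identical sequence limits the single GAGE, CTAG1 and MAGEA3 or MAGEA6 values at any depth.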
